A study of Mus musculus with 6 samples.

Results

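Perineuronal nets are lattices of extracellular matrix that wrap some neurons of the cerebral cortex, above all the fast-spiking interneurons that make parvalbumin. Long hyaluronan chains made at the cell surface form the backbone. Chondroitin sulfate proteoglycans of the lectican family (aggrecan, brevican, neurocan and versican) bind these chains at one end, link proteins pin them there, and tenascins join their other ends. The same molecules fill the looser matrix between cells, and nets are known for limiting synaptic plasticity once cortical circuits have matured. The genes described here are 10 rows of a deposited count table of 45777 genes, chosen by symbol: the lecticans Acan, Bcan, Ncan and Vcan, the link proteins Hapln1 and Hapln4, the tenascins Tnr and Tnc, the receptor and proteoglycan gene Ptprz1, and the hyaluronan synthase Has3. All 10 were in the table, and all 10 passed the filter on low counts.

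The anterior cingulate cortex lies on the midline of the frontal lobe, and RNA from it was sequenced in BALB/c mice, an inbred laboratory strain to which both groups belong. The non-stress group had 3 libraries and no defeat, and the stress group had 3 libraries from mice that had gone through 5 days of social defeat, in which a resident attacker overpowers an intruder mouse. The labels give no age, sex, agent or genetic change for either group. They do not say that each library came from its own animal, so the p-values cover the spread among these samples alone, and part of that spread may be technical.

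Each library held 41623899 to 47212982 counts. Levels are given in CPM, the count divided by the library total and multiplied by 1000000. On their log2 scale, principal component 1 held 34.5% of the variance over 19227 tested genes and put non-stress 2 and 3 at 37.4 and 27.4 and the other 4 libraries between -20.4 and -11.7. Non-stress 1 thus lay with the stress libraries. Cortical markers were present in every library: Slc17a7, the vesicular glutamate transporter of cortical excitatory neurons, stood at 1122 to 1288 CPM. Among markers of neighbouring tissue, the summed levels of the meningeal, choroid plexus and striatal lists overlapped between the groups. The 6 meningeal fibroblast genes summed to 8.15 to 12.9 CPM in non-stress and 10.7 to 12.4 CPM in stress. Their median log2 fold change, stress over non-stress, was 0.34, with 4 above 0 and 2 below. Col1a1 of this list stood at 0.144 to 0.371 CPM. The 4 choroid plexus genes summed to 8.09 to 13.1 and 4.26 to 12.6 CPM, with Ttr at 3.48 to 10.9 CPM. The 4 striatal genes summed to 146 to 182 and 151 to 161 CPM, and 3 of them had a log2 fold change below 0 (median -0.11). Drd2 stood at 0.974 to 1.18 CPM in non-stress and 0.468 to 0.736 CPM in stress. The pituitary gene Gh stood at 0 to 0.209 CPM in the non-stress libraries and 0.668 to 9.21 CPM in the stress libraries.

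The lectican and link protein genes lie in neighbouring pairs in the mouse genome (RefSeq table, build GRCm38). Ncan (chromosome 8, 70093085 to 70120863) is 2222 bases from Hapln4 (70083529 to 70090862), and Vcan (chromosome 13, 89655309 to 89743027) is 43476 bases from Hapln1 (89540529 to 89611832). Bcan (chromosome 3, 87987531 to 88002175) is 18382 bases from Hapln2, and Acan (chromosome 7, 79053226 to 79115099) is 1927 bases from Hapln3, with 0 protein-coding genes between the partners of any pair. The start regions of 4 of these genes are printed as examples, with Bcan and Ncan lower and Hapln1 and Vcan higher on average in stress. Each runs 5′ to 3′ on the gene's own strand, from 250 bases before to 50 bases after a start given by RefSeq (GRCm38.p6). These starts lie inside the gene spans given above and not at their ends, that of Bcan furthest in and that of Ncan least. Capitals mark matches on either strand to the GC box GGGCGG, the core TGACG of the cyclic AMP response element or the TATA box TATAAA.
Bcan: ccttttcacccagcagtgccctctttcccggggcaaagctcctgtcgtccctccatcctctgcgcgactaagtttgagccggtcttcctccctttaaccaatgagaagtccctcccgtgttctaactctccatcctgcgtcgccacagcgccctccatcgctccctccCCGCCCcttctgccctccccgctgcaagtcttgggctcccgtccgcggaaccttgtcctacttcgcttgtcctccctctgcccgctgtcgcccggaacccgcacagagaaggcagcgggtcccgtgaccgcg
Ncan: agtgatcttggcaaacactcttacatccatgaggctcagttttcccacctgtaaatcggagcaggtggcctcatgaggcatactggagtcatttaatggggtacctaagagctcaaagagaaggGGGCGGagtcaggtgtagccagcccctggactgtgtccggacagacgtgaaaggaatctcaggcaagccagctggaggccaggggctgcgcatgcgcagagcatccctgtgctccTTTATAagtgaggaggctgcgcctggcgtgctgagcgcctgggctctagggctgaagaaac
Hapln1: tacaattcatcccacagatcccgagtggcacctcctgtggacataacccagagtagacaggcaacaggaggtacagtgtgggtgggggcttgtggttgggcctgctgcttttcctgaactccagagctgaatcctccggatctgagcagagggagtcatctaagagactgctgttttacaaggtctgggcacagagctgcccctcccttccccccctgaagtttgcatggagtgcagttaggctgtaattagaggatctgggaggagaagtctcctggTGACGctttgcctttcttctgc
Vcan: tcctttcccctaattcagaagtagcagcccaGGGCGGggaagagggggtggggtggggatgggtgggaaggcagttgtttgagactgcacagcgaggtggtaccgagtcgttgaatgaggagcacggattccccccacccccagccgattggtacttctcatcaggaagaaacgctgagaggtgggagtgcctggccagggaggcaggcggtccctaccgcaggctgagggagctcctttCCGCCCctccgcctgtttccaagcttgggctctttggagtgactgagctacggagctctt
These windows are chr3:88000307-88000606 (minus strand), chr8:70120795-70121094 (minus), chr13:89540386-89540685 (plus) and chr13:89742463-89742762 (minus), in the order printed. Bcan, Ncan and Vcan held the GC box letters, which 35.7% of 32851 promoters of this length held. Hapln1 held the TGACG core, found in 20.8%, and Ncan the TATA letters, found in 13.6%. None of the 4 held the full cyclic AMP response element TGACGTCA, which contains that core and was found in 1.79%, or the E-box CACGTG, found in 7.15%. Promoter entries were found for 8 of the 10 genes, not for Hapln4 and Has3. The entry of Acan, which also lay lower on average in stress, is among those not printed.

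The matrix genes differed widely in level. Per kilobase of merged exon length, Bcan stood highest at 53.4 ± 4.79 CPM per kilobase (SD over all 6 libraries), followed by Hapln4 at 41.7 ± 4.96, and they lay above 93.6% and 91.6% of tested genes. Ncan (9.58 ± 1.04) and Ptprz1 (5.58 ± 0.486) came next. Tnr (2.30 ± 0.218) and Hapln1 (2.01 ± 0.278) overlapped between libraries, so that their order is within their spread. Vcan stood at 0.244 ± 0.0427 CPM per kilobase. Has3 (0.0799 ± 0.0243), Tnc (0.0785 ± 0.0329) and Acan (0.0749 ± 0.0230) overlapped one another at the bottom of the range. Only Ncan and Ptprz1 changed places when the longest transcript was used as the length (9.58 and 9.86 CPM per kilobase). Acan, whose product aggrecan is the most used marker of perineuronal nets, had 13 to 39 counts per library and lay above 2.01% of tested genes, while Pvalb, the parvalbumin gene of the neurons that bear most nets, stood at 79.0 to 97.5 CPM. Has3 and Tnc had 16 to 34 and 12 to 42 counts, so these 3 genes carry the largest counting error.

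**Figure D1:**
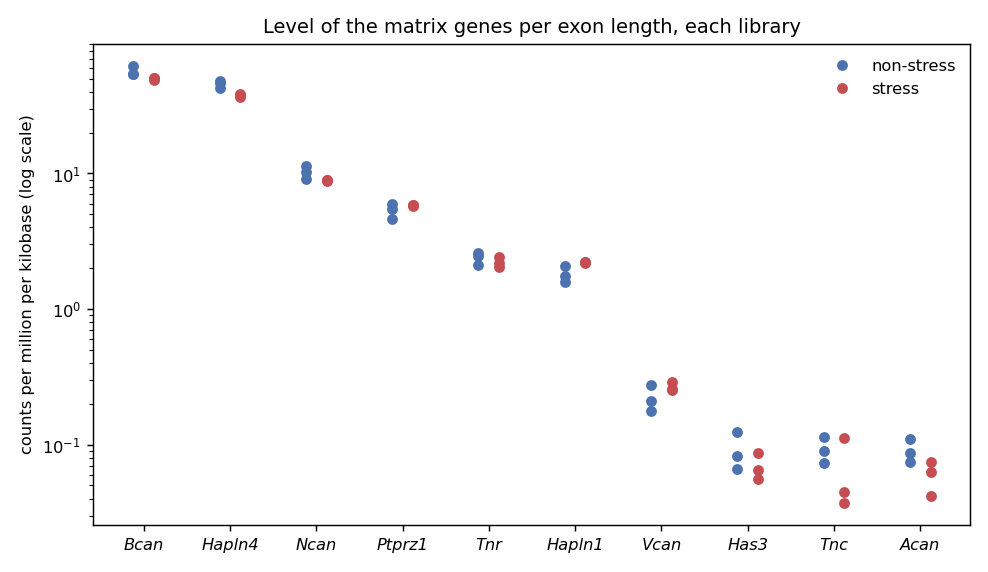
Level of each matrix gene in CPM per kilobase of merged exon length (log axis), 1 point per library, blue for non-stress and red for stress, ordered by the mean of all 6. Bcan and Hapln4 sit at the top, and Has3, Tnc and Acan overlap at the bottom.

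Stress was compared with non-stress to ask what social defeat does to expression of these genes. By edgeR's quasi-likelihood test with Benjamini-Hochberg adjustment, 0 of the 10 matrix genes passed an adjusted p under 0.05, against 1 of 19227 genes in all (0.00520%). limma-voom called 0 of the 10, against 0.0104% of all genes. DESeq2 gave an adjusted p to 6 of the 10 (not to Acan, Vcan, Tnc and Has3) and called 1, Hapln4 in the lower direction, against 1.06% of the genes to which it gave an adjusted p (0.602% lower). At an unadjusted p under 0.05 there were 4 of the 10 by edgeR (Hapln4, Bcan and Ncan lower, Hapln1 higher), where 12.1% of all tested genes lay under it (5.80% higher and 6.27% lower). Groups did not overlap in 5 of the 10, 4 lower (Bcan, Ncan, Hapln4 and, narrowly, Acan) and 1 higher (Hapln1). Over all tested genes that share was 17.9% (8.43% higher and 9.43% lower). The median log2 fold change of the 10 was -0.19, with 7 below 0, and that of all tested genes was -0.00053.

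Hapln4 encodes the link protein known from nets around inhibitory synapses and brainstem neurons. It stood at 167, 190 and 183 CPM in non-stress and at 143, 148 and 151 CPM in stress, in the order of replicates 1, 2 and 3 used throughout. The groups did not overlap, and of the non-stress libraries the first lay nearest to stress. The means were 180 ± 12.1 and 147 ± 3.94 CPM (SD, n = 3 each), 1.22-fold lower in stress. The log2 fold change was -0.29 (SE 0.05, edgeR adjusted p = 0.291), with a 95% interval from -0.41 to -0.16. It ranked 28 among 19227 genes by p. DESeq2 called it (adjusted p = 0.00120), and so did edgeR without non-stress 1 (log2 fold change -0.34, adjusted p = 0.00187), a setting in which 3.85% of all tested genes were called (2.94% higher and 0.913% lower). Against non-stress 1 alone, it was -0.17 (adjusted p = 0.190).

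Hapln1 encodes the other link protein of cortical nets, first known from cartilage. It stood at 12.2, 9.30 and 10.4 CPM in non-stress and at 13.2, 13.2 and 12.9 CPM in stress. All stress values lay above all non-stress values, and the stress libraries differed little from each other. The means were 10.6 ± 1.45 and 13.1 ± 0.200 CPM (SD, n = 3 each), with a log2 fold change of 0.30 (SE 0.10, edgeR adjusted p = 0.351, 95% interval 0.08 to 0.53). Hapln1 passed only without non-stress 1 (0.41, adjusted p = 0.0307), and against non-stress 1 alone its log2 fold change was 0.11 (adjusted p = 0.751). The ratio of Hapln4 to Hapln1 per kilobase, a pair chosen after the values were seen and therefore not tested, was 20.6, 30.7 and 26.4 in the non-stress libraries. In the stress libraries it was 16.3, 16.8 and 17.6, below all non-stress values. This order follows from the separation of each gene alone and adds nothing to it.

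Bcan encodes brevican, a lectican made in the brain, largely by glia. It stood at 219, 253 and 220 CPM in non-stress and at 199, 205 and 206 CPM in stress. The groups did not overlap, although non-stress 1 and 3 lay close to stress. Its log2 fold change was -0.18 (SE 0.06, edgeR adjusted p = 0.351, 95% interval -0.31 to -0.05). Without non-stress 2 it was -0.10 (adjusted p = 0.559).

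Ncan encodes neurocan, a lectican of neurons and astrocytes that is more abundant in the immature brain. It stood at 73.7, 82.1 and 65.8 CPM in non-stress and at 63.9, 63.6 and 64.5 CPM in stress. Non-stress 3 lay just above the stress libraries, which were nearly equal. The log2 fold change was -0.21 (SE 0.07, edgeR adjusted p = 0.367, 95% interval -0.37 to -0.04). Without non-stress 2 the value was -0.12 (adjusted p = 0.620). Against non-stress 1 alone it was -0.20 (adjusted p = 0.182).

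Acan had 24, 39 and 27 counts in non-stress and 13, 24 and 21 in stress, or 0.557, 0.826 and 0.643 against 0.312, 0.552 and 0.468 CPM. The groups touched, with non-stress 1 at 0.557 and stress 2 at 0.552 CPM. The log2 fold change was -0.60 (SE 0.31, edgeR adjusted p = 0.465), with a 95% interval from -1.30 to 0.10. At this depth a log2 fold change of 0 lay inside the interval. The value was -0.41 without stress 1 and -0.31 against non-stress 1 alone.

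Vcan encodes versican, a large lectican of the juvenile brain matrix and of oligodendrocyte precursors. It stood at 3.97, 2.54 and 3.05 CPM in non-stress and at 4.20, 3.68 and 3.70 CPM in stress. Non-stress 1 lay within the range of the stress libraries, and non-stress 2 and 3 lay below it. The log2 fold change was 0.28 (SE 0.17, edgeR adjusted p = 0.525, 95% interval -0.11 to 0.67). It was 0.47 without non-stress 1 (adjusted p = 0.135), 0.14 without non-stress 2 and -0.03 against non-stress 1 alone.

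Tnr encodes tenascin-R, which crosslinks lecticans in mature nets. It stood at 33.4, 27.3 and 31.4 CPM in non-stress and at 31.2, 26.1 and 28.2 CPM in stress. The groups overlapped. Its log2 fold change was -0.11 (SE 0.09, edgeR adjusted p = 0.655), with a 95% interval from -0.31 to 0.10. It was -0.18 without non-stress 2 or without stress 1, and -0.04 without non-stress 1 or without stress 2.

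Tnc encodes tenascin-C, a tenascin of development and injury. It had 30, 42 and 24 counts in non-stress and 12, 15 and 39 in stress. Stress 1 and 2 were the lowest libraries, while stress 3 was near the highest. The log2 fold change was -0.51 (SE 0.42, edgeR adjusted p = 0.636), and it was -1.18 without stress 3 (adjusted p = 0.494) and -0.25 without stress 1 (adjusted p = 0.911). Leaving out stress 2 gave -0.30 and leaving out non-stress 2 gave -0.32.

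Ptprz1 encodes a receptor tyrosine phosphatase of glia that carries chondroitin sulfate and whose secreted form, phosphacan, is itself a component of nets. The counts are per gene, so the forms were not separated. It stood at 85.3, 66.1 and 78.6 CPM in non-stress and at 83.0, 82.8 and 81.4 CPM in stress. Non-stress 1 was the highest library and non-stress 2 the lowest, on either side of the stress values. The log2 fold change was 0.11 (SE 0.08, edgeR adjusted p = 0.608). It was 0.19 without non-stress 1, 0.01 without non-stress 2 and -0.04 against non-stress 1 alone.

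Has3 encodes an enzyme that spins hyaluronan into the space around the cell. It had 34, 20 and 22 counts in non-stress and 23, 18 and 16 in stress. The groups overlapped, and non-stress 1 was the highest. Its log2 fold change of -0.39 (SE 0.34, edgeR adjusted p = 0.664) was -0.10 without non-stress 1, -0.25 without stress 3 and -0.83 against non-stress 1 alone (adjusted p = 0.541). Exons of Chtf8 on the opposite strand cover 5.5% of its exon length, so some of its reads cannot be assigned with certainty. For Tnr and Tnc the exons of opposite-strand noncoding genes cover 3.4% and 2.3%.

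**Figure D2:**
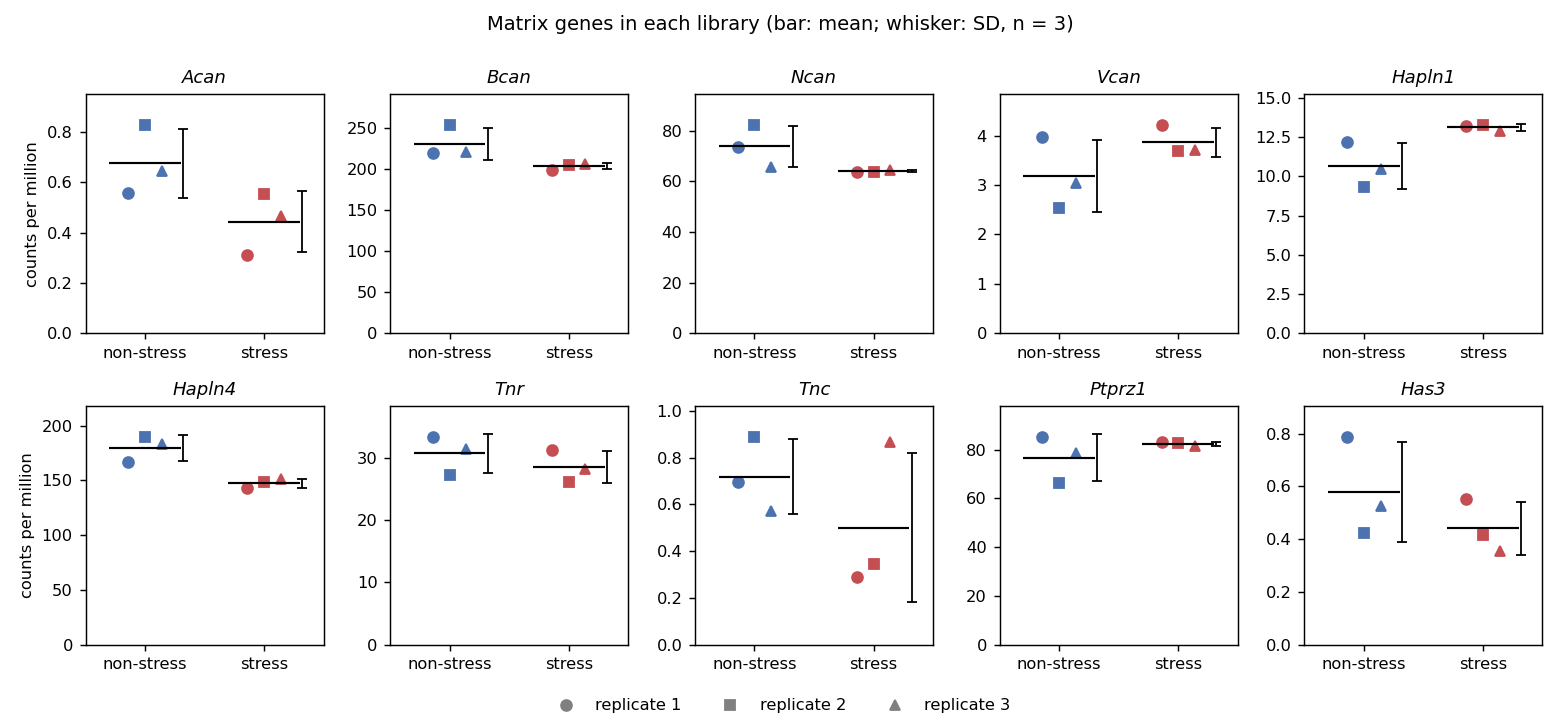
CPM of each matrix gene in the 3 non-stress (blue) and 3 stress (red) libraries, with a symbol for each replicate number, the group mean (line) and its SD (whisker, n = 3). Bcan, Ncan and Hapln4 are lower and Hapln1 higher in stress without overlap. Acan is also lower without overlap in CPM, but its counts in non-stress 1 and stress 2 are both 24. In 8 of the 10 genes the stress libraries spread less, relative to their mean, than the non-stress libraries. The same held over all tested genes, where the median SD was 9.04% of the mean in non-stress and 6.07% in stress.

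**Figure D3:**
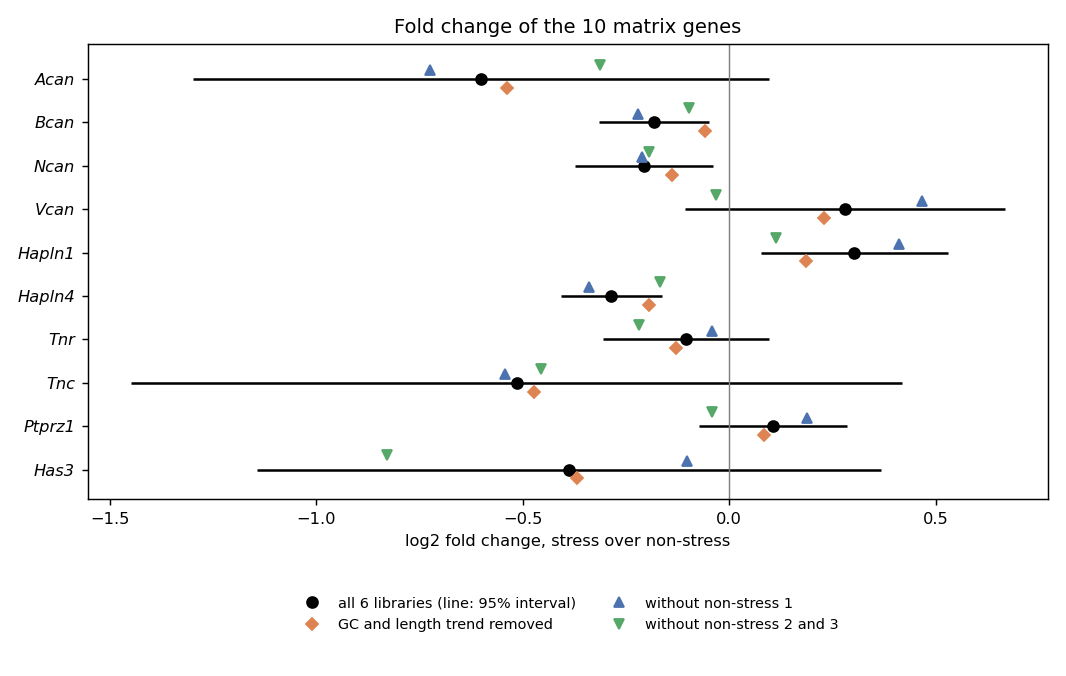
Log2 fold change of each matrix gene, stress over non-stress, with its 95% interval from edgeR (black), and the value without non-stress 1, without non-stress 2 and 3, and after removal of a trend on GC content and length. The intervals of Hapln4, Bcan, Ncan and Hapln1 leave out 0, and the values of Vcan and Ptprz1 turn below 0 when non-stress 2 and 3 are left out.

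The direction of the matrix genes went with the base composition of their transcripts. The 4 genes of highest GC content were Bcan (60.7%), Hapln4 (57.0%), Ncan (55.1%) and Acan (54.8%), and these were the 4 whose stress values all lay below the non-stress values. Hapln1 (39.8%), Vcan (43.7%) and Ptprz1 (44.5%) had the lowest GC content and were the 3 with a log2 fold change above 0. A slope in the same direction was present over all tested genes with a known sequence. Tested genes were split by GC content into 5 classes of equal size. In the lowest class the median log2 fold change was 0.06, and 28.1% lay below 0. In the highest class it was -0.07, and 69.5% lay below 0. The cause of the slope was not tested. After removal of a smooth trend on GC content and length from every library, 9 of the 10 genes came closer to 0, and the exception was Tnr (-0.13). A shift towards 0 is built in for genes that lie along the trend. An expression difference that went with GC content would be removed too. Bcan went from -0.18 to -0.06, Hapln4 from -0.29 to -0.19, Ncan from -0.21 to -0.14 and Hapln1 from 0.30 to 0.19. No sign was reversed, and 0 of the 10 passed (edgeR adjusted p = 0.220 for Hapln4, where 0.0173% of tested genes passed).

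**Figure D4:**
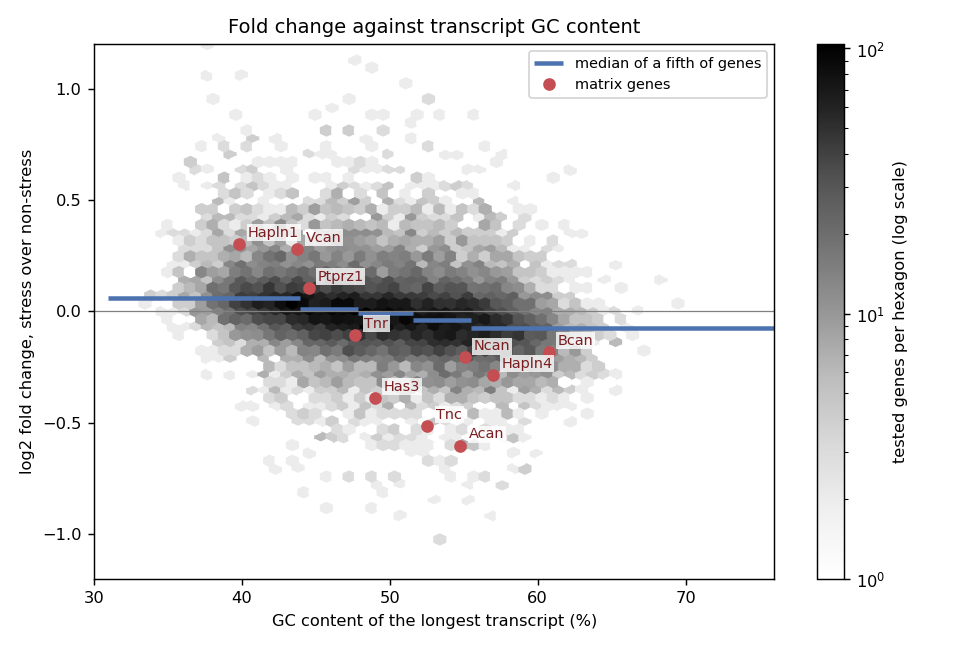
Log2 fold change, stress over non-stress, against the GC content of the longest transcript in percent, with grey hexagons for tested genes (log shading, genes beyond the axis limits not drawn), blue lines for the median of each of 5 classes of genes by GC content, and red points for the 10 matrix genes. The medians go from 0.06 in the lowest class to -0.07 in the highest, and the matrix genes of low GC content lie above 0 and those of high GC content below it.

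In whole tissue, fewer cells of a type and less RNA per cell cannot be told apart. The 10 marker genes of net-bearing interneurons summed to 817 to 894 CPM in non-stress and 825 to 832 CPM in stress, and Pvalb stood at 92.3 ± 6.79 and 89.2 ± 8.83 CPM (SD, n = 3 each). In this list 0 of 10 passed, and 4 lay lower at an unadjusted p under 0.05 (Syt2, Slc32a1, Lhx6 and Gad1, with log2 fold changes of -0.27, -0.49, -0.18 and -0.11), where 6.27% of all tested genes lay lower at that p. Of the 10 genes 8 had a log2 fold change below 0, while Cox6a2 (0.17) and Gad2 (0.14) lay above it. Astrocyte markers summed to 1623 to 1670 and 1609 to 1669 CPM, with Aqp4 at 44.6 ± 1.51 and 47.0 ± 1.30 CPM. Of these 8 genes 4 had a log2 fold change below 0, and the 1 with an unadjusted p under 0.05 was Aldh1l1 (-0.17, groups not overlapping). Markers of oligodendrocyte precursors, the cells that make much of the Vcan and Ptprz1 transcript, summed to 242 to 270 and 247 to 264 CPM. Pdgfra, their defining marker, stood at 14.3 ± 0.242 and 15.3 ± 0.400 CPM. Of these 7 genes 5 had a log2 fold change above 0, while Sox10 (-0.25, the 1 with an unadjusted p under 0.05) and Gpr17 (-0.15) lay below it. Oligodendrocyte markers summed to 6178 to 7658 and 6791 to 7341 CPM, with Mbp at 3790 ± 510 and 3666 ± 209 CPM. No gene of these lists was at 0 in all libraries, and their part in the values of the matrix genes was not tested.

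The wider matrix was followed in 78 genes in 7 lists, of which 73 passed the filter on low counts. Of the 73, 0 passed edgeR's threshold. DESeq2 gave an adjusted p to 46 of them and called 0. At an unadjusted p under 0.05 there were 5 higher and 6 lower, 15.1% of the 73 against 12.1% of all tested genes. The median log2 fold change was -0.05. Without non-stress 1, 2 passed in the higher direction (Mmp16 and Dsel) and 3 in the lower (Mmp17, Ust and Timp3), 6.85% of the 73 against 3.85% of all genes.

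Among genes that build and sulfate the chondroitin chains carried by the lecticans, Ust had the smallest p. This enzyme adds sulfate to uronic acid units of the chain. It stood at 11.9, 11.9 and 11.7 CPM in non-stress and at 9.18, 8.72 and 9.49 CPM in stress. The groups did not overlap and non-stress 1 lay with the other non-stress libraries. Its log2 fold change was -0.37 (SE 0.08, edgeR adjusted p = 0.338), and it was -0.37 without non-stress 1 (adjusted p = 0.0468).

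Dsel, related to the epimerase that turns chondroitin into dermatan units, stood at 8.05, 6.08 and 7.50 CPM in non-stress and at 9.63, 9.11 and 10.3 CPM in stress. All stress values lay above the non-stress values (log2 fold change 0.43, SE 0.12, edgeR adjusted p = 0.344). Chst12, a sulfotransferase of the 4-position, stood at 69.7 CPM in non-stress 1 and at 41.5 to 50.7 CPM in the other 5 libraries. Its log2 fold change of -0.26 (edgeR adjusted p = 0.502) was -0.05 without non-stress 1. Against non-stress 1 alone it was -0.60, a value that rests on a lone library with no spread of its own. Of 14 chain synthesis genes, 1 was higher and 2 lower at an unadjusted p under 0.05, where 5.80% of all tested genes were higher and 6.27% lower. These were Xylt1, the xylosyltransferase that starts a chain (0.36, edgeR adjusted p = 0.351), B3gat3, which completes the linker (-0.20, adjusted p = 0.388), and Chpf2, a chain-polymerizing factor (-0.22, adjusted p = 0.389). Without non-stress 2, B3gat3 stood at -0.08 and Chpf2 at -0.09. Of 11 sulfation genes tested, 1 was higher and 1 lower at that p, against the same shares of all genes.

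Among the proteases that cut matrix and neighbouring proteins, Mmp16, a membrane-bound metalloproteinase, stood at 35.5, 23.7 and 27.0 CPM in non-stress and at 39.6, 36.8 and 38.4 CPM in stress. The groups did not overlap, and non-stress 1 lay near stress (log2 fold change 0.42, SE 0.12, edgeR adjusted p = 0.344). Mmp17, another membrane-anchored member of the family, stood at 214, 267 and 245 against 203, 208 and 210 CPM (-0.22, adjusted p = 0.351, and -0.14 without non-stress 2). For Adamts15, of the family that cleaves lecticans, it was -0.35 (adjusted p = 0.480), with -0.23 without non-stress 2 and -0.21 without stress 3. Adamts4 and Adamts5, known for cleaving lecticans and named for this role, not by the rule, had values of 0.15 (adjusted p = 0.601) and 0.14 (adjusted p = 0.921). Without non-stress 1 these were 0.07 and 0.54. Timp3, a matrix-bound inhibitor of these proteases, stood at 78.1, 82.4 and 86.5 CPM in non-stress and at 72.1, 71.6 and 75.0 CPM in stress (-0.17, SE 0.05, adjusted p = 0.344). Timp2 and Timp4 had values of -0.07 and -0.04.

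Hyal3, of the hyaluronidase family, stood at 0.371, 0.699 and 0.596 CPM in non-stress and at 0.889, 0.852 and 1.05 CPM in stress. The groups did not overlap (log2 fold change 0.74, edgeR adjusted p = 0.382). Cemip, which takes part in hyaluronan breakdown, and its relative Cemip2 had values of 0.24 and 0.13 (adjusted p = 0.507 and 0.580), the latter 0.08 without non-stress 1. Of the remaining matrix partners, Sema3a, a guidance molecule held in nets, had a value of 0.27 (adjusted p = 0.398) and overlapping groups. Cspg4, the NG2 proteoglycan of oligodendrocyte precursors, stood at 5.99 ± 0.121 and 6.80 ± 0.0445 CPM (0.18, adjusted p = 0.456). Hapln3, the neighbour of Acan, stood at 1.64 ± 0.0387 and 1.23 ± 0.319 CPM (-0.41, adjusted p = 0.473), and its value was -0.22 without stress 2. Hapln2, the neighbour of Bcan that is not named by the rule, had a value of -0.13 (adjusted p = 0.730), which was -0.27 without non-stress 1. Of 13 genes for receptors and ligands, Ptprs, a receptor for chondroitin sulfate, had the smallest p, at 256 ± 10.1 and 235 ± 9.08 CPM (-0.13, SE 0.05, adjusted p = 0.368). Rtn4rl2, of the Nogo receptor family, and Sdc3, a heparan sulfate proteoglycan, had values of -0.15 and -0.12. Rtn4rl2 stood at -0.09 without stress 1 and -0.24 without stress 3, and Sdc3 at -0.06 without non-stress 1.

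**Figure D5:**
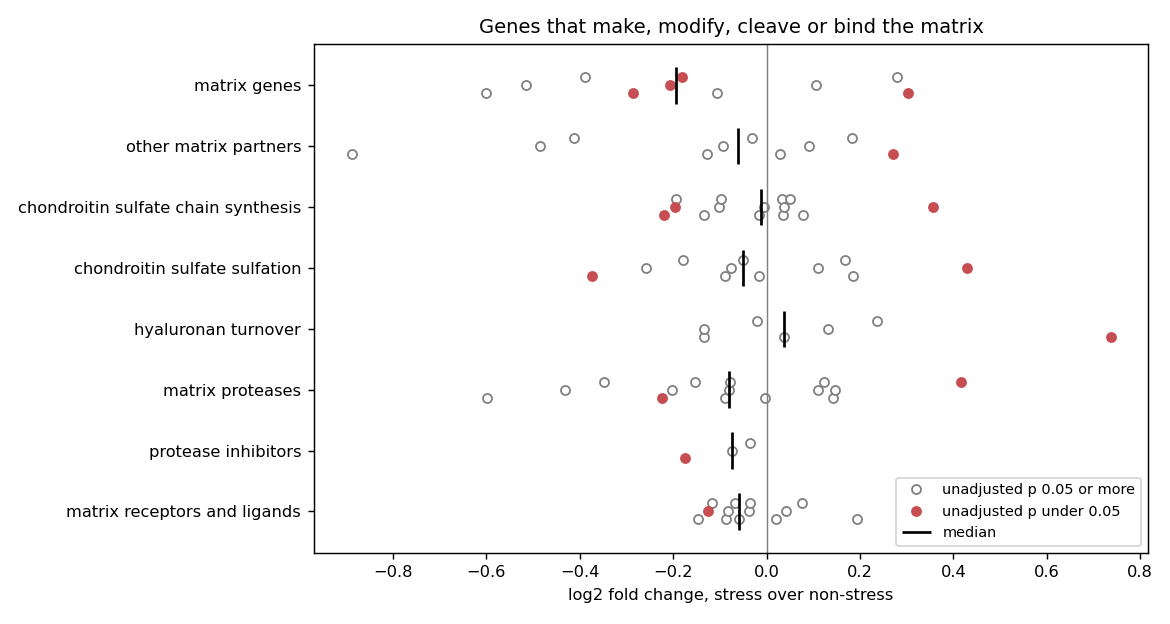
Log2 fold change, stress over non-stress, of the 10 matrix genes and of the tested genes of the 7 lists around them, 1 point per gene, filled red where the unadjusted p was under 0.05, with the median of each list as a black line. The lists lie around 0, with medians from -0.08 to 0.04, and the 10 matrix genes have a median of -0.19.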

How the data were processed

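Libraries were made from 100 ng of total RNA by SMARTer low-input amplification followed by TruSeq construction, per the labels' protocols. The submitters' processing notes name Trimmomatic 0.38, HISAT2, StringTie and build GRCm38 (mm10). How reads were counted, on which annotation and whether by strand is not given in the sources used here. The authors deposited whole-number counts per gene, used unchanged. Per library, 1.42 to 1.49 times more genes had a count of 2 than the average of the numbers with 1 and with 3.

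edgeR 4.0.16 (R 4.3.3) kept 19227 genes by filterByExpr, scaled libraries by TMM and tested stress against non-stress by the quasi-likelihood test with group as the single term, two-sided, adjusted by Benjamini-Hochberg over all tested genes (threshold 0.05). Intervals are 95% from its t distribution. CPM are counts scaled to a library total of 1000000, given as mean ± SD. Lengths and GC content came from GENCODE for GRCm38 (90.2% of tested genes) and positions and promoters from RefSeq. Levels per length assume even coverage along transcripts, which was not checked. Alternatives included DESeq2 1.42.0 and limma-voom (limma 3.58.1). The 10 genes and the lists were chosen with earlier results of these data known. Named were all 10 genes, the 3 genes of smallest p in each of the 7 lists, and 1 defining marker per cell type, with none for microglia and endothelial cells. Other genes are said to be outside this rule, to have been named after their values were seen or to have an unadjusted p under 0.05. Slc1a3 is also outside the rule, as are Gpr17, Cox6a2 and Gad2, whose direction was opposite to that of most of their list.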

Additional observations from a re-analysis of the deposited data

How the results depend on the processing

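Of the matrix genes, 0 passed with all libraries, and this count was 1 with DESeq2 (1 lower), 0 to 2 when single libraries were left out (0 to 1 higher and 0 to 1 lower, both without non-stress 1), and 0 under each other alternative run. Over all genes, 1 passed (1 higher and 0 lower), against 107 (46 and 61) with DESeq2, 2 (2 and 0) with limma-voom, 3 (1 and 2) with the GC and length trend taken out, and 1 to 756 when single libraries were left out (0 to 577 higher and 0 to 179 lower). With non-stress 2 and 3 left out together, an alternative chosen after seeing the data that assumes the lone non-stress library varies like the others, 63 passed (18 and 45), and of the matrix genes and the genes named by rule from the 7 lists, Vcan (-0.031), Ptprz1 (-0.041) and Timp4 (0.029) were reversed. Of the other named genes, Hapln2 (0.23), Adamts5 (-0.42), Gfap (-0.98), Slc1a3 (0.011), Pvalb (0.083) and Mbp (0.20) were also reversed there. The cause was not tested. Replicate numbers did not pair the samples (correlations of same-numbered deviations -0.03 to 0.02). With replicate number as a block 2 genes passed (2 higher), and 10 (4 and 6) with the GC and length trend added, 0 of them matrix genes. Log2 fold changes of the matrix genes kept direction and side of the threshold in 148 combinations of gene and alternative, were newly past it in 3 and reversed in 2. In 4 more, DESeq2 gave no adjusted p. A minimum of 50 counts in 3 libraries left Acan, Tnc and Has3 untested. Each of these 3 had under 50 counts in every library.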

Other observations

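Gfap, the intermediate filament gene of astrocytes, chosen after its values were seen, stood at 26.6 CPM in non-stress 1, at 5.32 and 4.74 CPM in non-stress 2 and 3, and at 12.5 to 14.5 CPM in the stress libraries. Its log2 fold change was 0.14 (SE 0.54, edgeR adjusted p = 0.937). Leaving out non-stress 1 gave 1.41 (edgeR adjusted p = 7.7e-05), and keeping it as the only non-stress library gave -0.98. Slc1a3, an astrocyte glutamate transporter gene, stood at 528, 567 and 533 CPM in non-stress 1, 2 and 3. Neurod6, a transcription factor gene of cortical excitatory neurons, also named after its values were seen, stood at 196, 175 and 188 CPM in non-stress and 213, 211 and 211 CPM in stress (log2 fold change 0.19, edgeR adjusted p = 0.344). It passed with DESeq2 (adjusted p = 0.0277) and in edgeR without non-stress 1 (adjusted p = 0.0192).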
